A study of Mus musculus with 16 samples.

Results

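The genes described here encode the proteins of the cytosolic ribosome. They were taken by symbol, as every probe annotated to Rpsa, Rplp0, Rplp1, Rplp2 or a name that starts with Rpl or Rps and a digit, without the S6 kinases and the named pseudogenes. The rule found 65 of the 16593 named genes of the array, with 83 of its 25697 probes, and Rpl3l, the striated muscle paralog of Rpl3, adds 1 probe that is reported apart. Of the 83 probes, 52 are for large subunit names and 29 for small subunit names. The remaining probes are for Rps19bp1, a protein that binds Rps19, and for Rps23rg1, a gene copied from Rps23 in the mouse, which the rule takes in by name. In all, 77 probes of 61 genes were bright enough to be tested, 49 of the large and 26 of the small subunit among them. The other 6 probes, for Rpl14, Rpl6, Rps23, Rpsa (both of its probes) and Rpl37 (1 of its probes), had intensities of 18.2 to 77.6 and passed the brightness limit on 0 to 2 of the 16 arrays, so that no level or change is given for them.

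The study measured total RNA from part of the lung on Illumina bead arrays, with 1 array for each of 16 female mice of the strain C57BL/6N and 4 mice per group. The groups were wild type and Prdm11 knockout mice that carried no treatment in the labels and were 22 weeks old, and wild type and Prdm11 knockout mice that had been challenged with ovalbumin (OVA) and were 35 weeks old. Prdm11 encodes a PRDM protein, a kind of transcriptional regulator, and OVA is an egg protein used to provoke allergic airway inflammation. Per the labels, mice were sensitised by injection with OVA (10 µg, with 2 mg of alum), followed by 3 inhaled exposures to 1% OVA of 30 min each. The labels do not settle whether the untreated mice had been sensitised. They do not say how the knockout allele was made. Age and challenge cannot be told apart, because all challenged mice were the older ones.

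The cytosolic ribosome translates the mRNA of the cell nucleus. Its small subunit binds the mRNA and reads the codons, and its large subunit joins the amino acids and holds the exit tunnel of the new chain. The ribosomal proteins are made in matched amounts, and most of their mRNAs begin with a run of pyrimidines, the TOP motif, through which the mTOR pathway controls their translation. Lymphocytes that have been activated and other dividing cells are known for making many ribosomes.

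For 56 of the 65 genes the RefSeq promoter table of GRCm38.p6 held an annotated start, and 8 of these had several starts, of which the first listed was used. Around that start, 60 bases are shown on the sense strand with the longest run of pyrimidines that reaches within 10 bases of the start in capitals. The genes shown are those with the 6 largest called rises and all called falls with challenge in either genotype, at their brightest probe, and Rpl3l. The table held no entry for Rpl21, the remaining gene of that choice. The start is the base after the first 30. The windows on the plus strand lie at chr2:26910777-26910836 (Rpl7a), chr7:3704011-3704070 (Rps9), chr9:44407684-44407743 (Rps25), chrX:74270786-74270845 (Rpl10), chr3:28805478-28805537 (Rpl22l1), chr11:98026680-98026739 (Rpl19), chr11:101442215-101442274 (Rpl27), chr8:3567968-3568027 (Rps23rg1) and chr17:24727796-24727855 (Rpl3l). Those on the minus strand lie at chr10:128626477-128626536 (Rps26), chr3:86142639-86142698 (Rps3a1), chr17:27635215-27635274 (Rps10) and chr7:118116118-118116177 (Rps15a).
Rpl7a: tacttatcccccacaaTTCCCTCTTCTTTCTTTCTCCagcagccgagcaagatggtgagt
Rps9: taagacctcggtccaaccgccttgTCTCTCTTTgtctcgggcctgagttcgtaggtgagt
Rps26: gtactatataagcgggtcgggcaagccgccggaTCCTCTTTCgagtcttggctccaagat
Rps25: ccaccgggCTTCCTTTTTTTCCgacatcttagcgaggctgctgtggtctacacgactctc
Rps3a1: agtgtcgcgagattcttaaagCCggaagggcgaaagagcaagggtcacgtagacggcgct
Rps10: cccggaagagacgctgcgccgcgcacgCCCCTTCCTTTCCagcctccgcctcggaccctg
Rpl10: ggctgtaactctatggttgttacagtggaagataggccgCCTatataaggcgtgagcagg
Rps15a: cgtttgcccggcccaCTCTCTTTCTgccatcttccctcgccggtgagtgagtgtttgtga
Rpl22l1: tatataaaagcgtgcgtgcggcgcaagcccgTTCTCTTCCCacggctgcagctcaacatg
Rpl19: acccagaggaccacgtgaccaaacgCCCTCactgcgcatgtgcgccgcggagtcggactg
Rpl27: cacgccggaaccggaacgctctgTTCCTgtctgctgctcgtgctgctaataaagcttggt
Rps23rg1: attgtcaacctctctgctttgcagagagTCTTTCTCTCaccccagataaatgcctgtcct
Rpl3l: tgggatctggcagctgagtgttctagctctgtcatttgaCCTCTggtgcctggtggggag

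Among the genes that rose, the run was 21 bases long in Rpl7a, 14 in Rps25, 13 in Rps10, 10 in Rpl22l1, 9 in Rps9 and Rps26, 5 in Rpl19 and Rpl27 and 2 in Rps3a1. It was 10 in Rps15a and Rps23rg1 and 3 in Rpl10, which fell, and 5 in Rpl3l. A run of at least 7 pyrimidines near the start was found in 27 of the 56 ribosomal protein genes (48.2%) and in 19.5% of the 27025 genes of the table. Among motifs searched on both strands from 250 bases before to 50 after the start, CGGAAG, the core that ETS factors bind, was in 69.6% of the ribosomal protein genes against 17.2% of all genes. The GC box GGGCGG was in 62.5% against 35.9%, the YY1 core AAGATGG in 16.1% against 6.48%, and TATAAA in 8.93% against 14.2%. On the sense strand alone CTCTTTC was in 16.1% against 3.91%. These are matches of letters around annotated starts, and the starts used in these lungs were not measured.

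Facts of the arrays come before the results. The array medians lay between intensities of 85.4 and 86.5, and the number of arrays limits the precision. With 0 probes named Prdm11 on the array, the knockout was not checked in these data and the genotypes are those of the labels. Lung markers (9 tested genes, among them surfactant genes) averaged log2 12.25 to 12.33 per array in untreated wild type, 12.20 to 12.31 in untreated knockout, 11.75 to 12.04 in challenged wild type and 10.31 to 11.82 in challenged knockout mice. Challenged wild type replicate 4 stood apart. Over the tested probes it correlated with the other arrays at 0.676 to 0.842, and any 2 of those correlated at 0.877 or more. Results that rest on it are therefore given with and without it.

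On that array 5 of the 77 ribosomal protein probes (6.49%) lay more than 1 log2 unit below each of the other 15 arrays, close to the 6.2% of all tested probes. Rpl27a stood at log2 6.84 there and at 9.03 to 9.43 elsewhere, and Rpl13a at 6.04 and at 8.03 to 8.96 elsewhere. Rpl30 stood at 6.33 against 8.15 to 9.69. These 3 genes and 1 probe each of Rpl31 (6.07 against 7.85 to 8.67) and Rpl4 (7.01 against 8.66 to 9.44) all had a mean level between 8 and 10 on the log2 scale, a range that holds 11 of the ribosomal protein probes. In that range 24.7% of all tested probes were as far below on this array, while 0 of the brighter ribosomal protein probes were. The other Rpl31 probe stood at 11.45 on it and at 11.38 to 12.06 elsewhere. Rplp2 went the other way, at 8.57 on this array and at 7.50 or less on the 15 others.

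**Figure D1:**
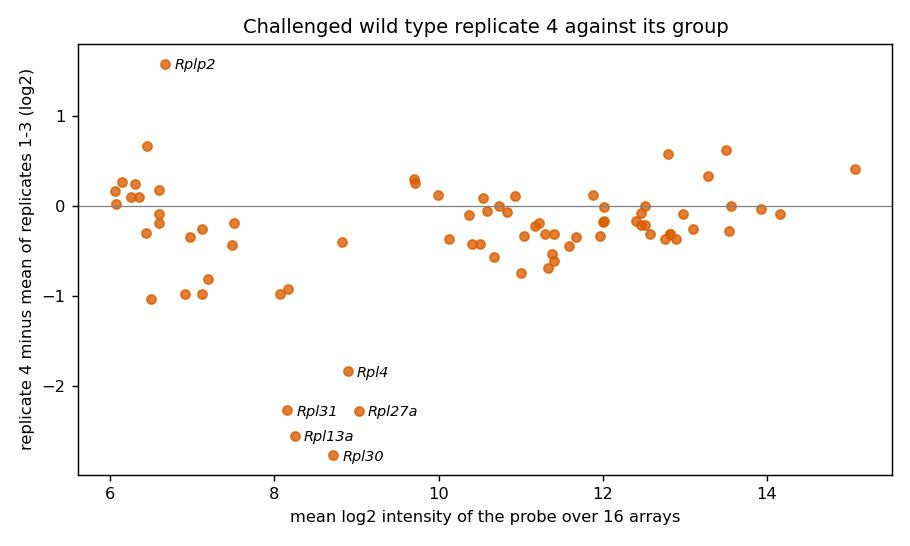
Each point is 1 of the 77 tested ribosomal protein probes, with its mean log2 intensity over the 16 arrays on the x axis and, on the y axis, its log2 level in challenged wild type replicate 4 minus the mean of replicates 1 to 3 of that group. Most points lie near 0, the probes of Rpl27a, Rpl13a, Rpl30, Rpl31 and Rpl4 lie far below, and Rplp2 lies above.

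The comparison of challenged with untreated wild type mice asks how the ribosomal protein mRNAs differed with challenge. Most of those that passed the test were higher after challenge. In limma at an adjusted p under 0.05 over all 17810 tested probes, 33 of 77 probes rose, 4 fell and 40 did not pass, whereas of all tested probes 11.7% rose and 17.7% fell. The median change of the 77 was 0.29 on the log2 scale beside 0.03 over all tested probes, and 59 of the 77 changes were above 0. Taking 1 probe per gene, the brightest, 30 genes rose and 3 fell of 61. Because this was RNA of whole tissue, more cells of a kind and more RNA per cell cannot be told apart, here and in all that follows.

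Both subunits took part. Of 26 small subunit probes 16 rose and 1 fell, with a median change of 0.49, and of 49 large subunit probes 17 rose and 3 fell, with a median of 0.18. The difference between the subunits was not tested. The calls lay mainly among probes of middle and high level. Of the 23 with a mean log2 level of 10 to 12, 18 rose and 0 fell, where 25.1% of all tested probes in that range rose and 27.5% fell. Above 12, 9 of 23 rose (all probes: 20.2%) and 1 fell. Below 8, 2 of 20 rose and 3 fell, near the 10.4% and 15.6% of all such probes.

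Rpl7a, a protein of the large subunit, led the rises. Its level was 8.56, 8.32, 8.31 and 8.52 in untreated and 9.61, 9.68, 9.27 and 9.12 in challenged wild type mice 1 to 4, a change of 0.99 ± 0.16 (SE) or 1.99-fold (adjusted p = 0.00065). The groups did not overlap. Rps9, a small subunit protein that bears on the accuracy of decoding, stood at 12.16, 12.10, 12.42 and 12.19 in untreated and at 13.09, 13.00, 13.06 and 13.63 in challenged mice, a rise of 0.98 ± 0.14 (adjusted p = 0.000185), with replicate 4 the highest. Its second probe rose by 0.66 ± 0.10.

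Rps26 and Rps3a1 encode proteins at the mRNA exit side of the small subunit. Rps26 stood at 11.54, 11.13, 11.53 and 11.30 before and at 12.26, 12.15, 12.40 and 12.39 after challenge, a rise of 0.92 ± 0.15 (adjusted p = 0.000486). For Rps3a1 the untreated mice lay within 10.05 to 10.18 and the challenged ones at 10.91, 10.83, 11.06 and 10.87, a rise of 0.81 ± 0.10, with the smallest adjusted p among the ribosomal protein probes (8.88e-05). In both genes every challenged mouse was above every untreated one. Rps25, which some viral and cellular mRNAs need for initiation at internal sites, rose by 0.91 ± 0.19, from 9.48 to 10.19 in untreated to 10.43 to 10.99 in challenged mice. Rps10, which is ubiquitinated when ribosomes stall, rose by 0.78 ± 0.12, from 10.64 to 10.84 to 11.23 to 11.64.

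Rps6, the protein that the S6 kinases phosphorylate downstream of mTOR, stood at 10.50, 10.16, 10.28 and 10.18 in untreated and at 10.86, 10.96, 11.30 and 10.61 in challenged wild type mice. It rose by 0.65 ± 0.16 (adjusted p = 0.00831). The smallest rise that passed was that of Rpl3, a protein of the peptidyl transferase centre, at 0.29 ± 0.10 (adjusted p = 0.0466). That call was lost when any 1 array was left out except untreated wild type replicate 3, untreated knockout replicate 2, challenged knockout replicate 1 or challenged wild type replicate 2 (adjusted p up to 0.11). Leaving out a knockout array kept the change at 0.29 and moved only the spread shared by all groups and the adjustment of p.

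The P stalk, through which the large subunit engages the elongation factors, is built from Rplp0, Rplp1 and Rplp2. The brighter Rplp0 probe stood at 7.17, 7.15, 7.43 and 7.19 in untreated and at 7.75, 7.65, 7.81 and 7.30 in challenged wild type mice, a rise of 0.40 ± 0.13 (adjusted p = 0.0285) with overlapping groups, while the dimmer probe changed by 0.14 ± 0.09 and did not pass (adjusted p = 0.259). Rplp1 stood at 13.39, 13.21, 13.43 and 13.39 and at 13.63, 13.79, 13.92 and 13.51, a rise of 0.36 ± 0.11 (adjusted p = 0.0266). Both calls were lost without untreated replicate 1 or 2 or challenged replicate 3, and that of Rplp0 also without challenged replicate 1 or untreated replicate 4 (adjusted p up to 0.0736 for Rplp0 and up to 0.0767 for Rplp1). Rplp2 was at 6.41, 6.62, 6.68 and 6.59 in untreated and at 7.50, 6.94, 6.52 and 8.57 in challenged mice. Its change of 0.81 ± 0.29 did not pass (adjusted p = 0.0506) and was 0.41 ± 0.17 without replicate 4 (adjusted p = 0.0821). It passed without challenged replicate 2 (0.95, adjusted p = 0.0307) or 3 (1.09, adjusted p = 0.00535). With all arrays kept it passed narrowly in 7 of 13 other settings of the fit (adjusted p = 0.0412 to 0.0498).

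Genes that fell in wild type mice were few. Rpl10, which joins the large subunit last as it matures, stood at 13.30, 13.23, 12.96 and 13.16 in untreated and at 12.62, 12.74, 13.02 and 12.42 in challenged mice. The fall was -0.47 ± 0.12 (adjusted p = 0.00925), with challenged replicate 3 above the lowest untreated mouse. Both Rpl21 probes fell, by -0.45 ± 0.10 and -0.40 ± 0.11, from 6.70 to 6.78 down to 6.15 to 6.43 in the brighter one. Rps15a fell by -0.35 ± 0.10 (adjusted p = 0.0189), from 7.04 to 7.21 down to 6.51 to 6.96. That call was lost without untreated replicate 1 (adjusted p = 0.0587). The Rpl21 and Rps15a probes are dim, with levels near the brightness limit of log2 6.24 to 6.25 for Rpl21.

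The comparison of challenged with untreated Prdm11 knockout mice asks the same of the mutant. Of 77 probes 23 rose and 2 fell, beside 9.1% and 7.48% of all tested probes. The median change was 0.30 beside -0.05 over all tested probes, and again 59 of 77 changes were above 0. Of the small subunit probes 10 rose and 0 fell (median 0.35), and of the large subunit probes 13 rose and 1 fell (median 0.22). Among the 23 probes with a mean level of 10 to 12, 11 rose and 0 fell, where 22.2% of all tested probes rose and 28.5% fell.

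Rps3a1 was again the gene with the smallest adjusted p. It stood at 10.24, 10.20, 10.24 and 10.15 in untreated and at 10.93, 10.99, 11.27 and 11.33 in challenged knockout mice, a rise of 0.92 ± 0.10 (adjusted p = 5.23e-05). Rpl22l1, the paralog of Rpl22, had the largest rise, from 6.93, 6.55, 6.80 and 6.99 to 7.66, 7.62, 7.93 and 7.95, or 0.97 ± 0.22 (adjusted p = 0.00684). In both genes the groups did not overlap. Rpl19, which helps bridge the subunits, rose by 0.84 ± 0.18, from 9.04 to 9.38 in untreated to 9.54 to 10.48 in challenged mice.

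Rpl7a rose by 0.82 ± 0.16 in the knockout, from 8.19, 8.38, 8.33 and 8.30 to 9.03, 8.67, 9.55 and 9.24. The brighter Rps9 probe rose by 0.81 ± 0.14, from 12.39, 12.75, 12.42 and 12.40 to 13.30, 13.30, 13.19 and 13.39, and its second probe by 0.24 ± 0.10, which did not pass (adjusted p = 0.104). Rpl27 rose by 0.74 ± 0.15, from 10.75 to 11.10 to 11.43 to 11.96. All 4 challenged mice exceeded all 4 untreated mice in these genes at their called probes. Rps6 changed by 0.30 ± 0.16 and did not pass (adjusted p = 0.225). Of the P stalk, the brighter Rplp0 probe changed by 0.35 ± 0.13 and did not pass (adjusted p = 0.0741). The dimmer Rplp0 probe rose by 0.35 ± 0.09 (adjusted p = 0.0165). Rplp1 changed by 0.26 ± 0.11 and Rplp2 by -0.39 ± 0.29, and neither passed.

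Rpl10 fell by -0.47 ± 0.12 in the knockout (adjusted p = 0.0107), the same size as in wild type mice, from 13.09, 13.08, 13.12 and 13.12 to 12.54, 12.59, 12.68 and 12.69. It was the 1 structural ribosomal protein gene called lower in both genotypes. The other fall was that of Rps23rg1, at -0.65 ± 0.21 (adjusted p = 0.0446), from 6.77 to 7.39 down to 6.39 to 6.71. That call was lost when any 1 array was left out except untreated knockout replicate 4 or challenged wild type replicate 2, 3 or 4 (adjusted p up to 0.127). Leaving out a wild type array kept the change at -0.65 and moved only the spread shared by all groups and the adjustment of p.

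**Figure D2:**
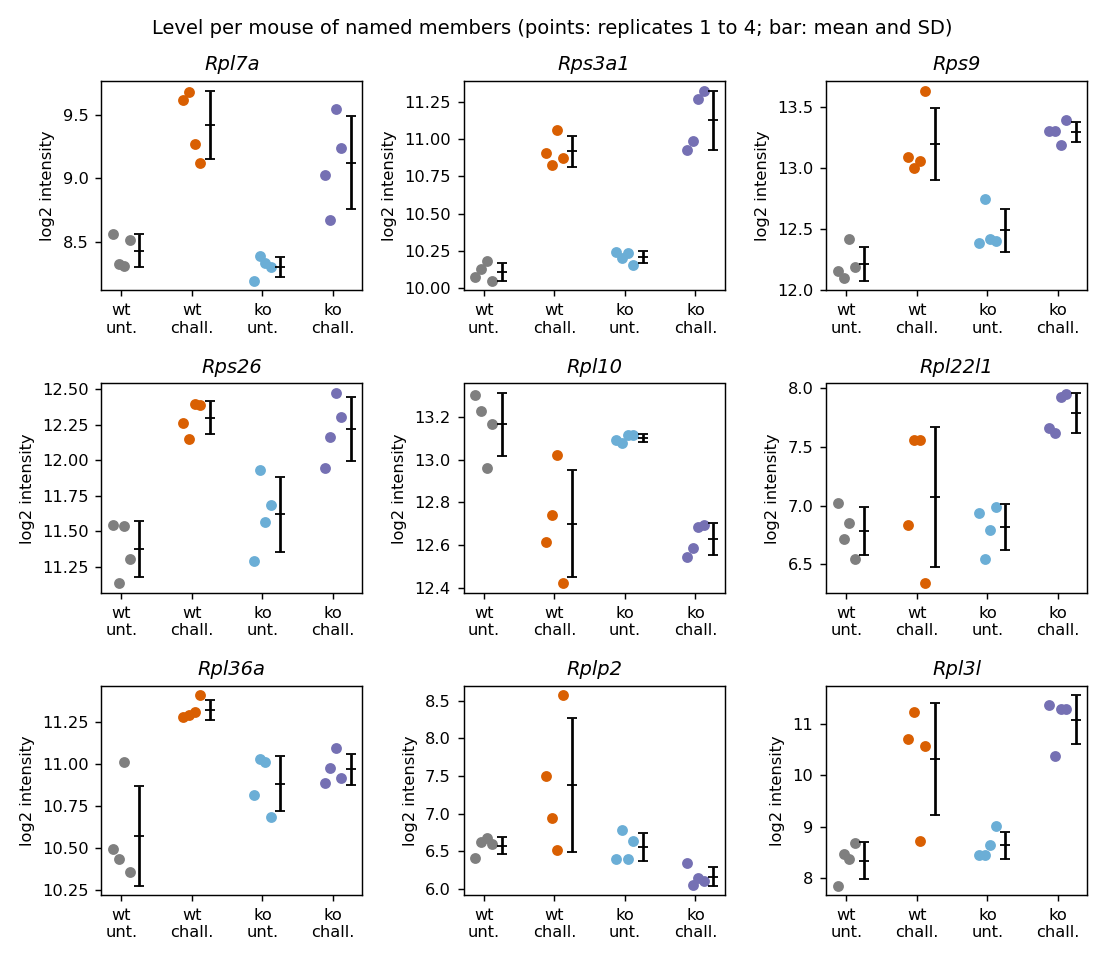
Log2 intensity (y axis) of 8 ribosomal protein genes and of Rpl3l in each mouse of the 4 groups (x axis), with the group mean and SD as bars (wt, wild type, ko, knockout, unt., untreated, chall., challenged). In both genotypes the challenged mice lie above the untreated ones in Rpl7a, Rps3a1, Rps9 and Rps26, and Rpl10 lies lower after challenge.

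The wild type and knockout comparisons share no mice. Of the 33 probes that rose in wild type and the 23 that rose in knockout mice, 18 rose in both, which is 54.5% of the former and 78.3% of the latter. For all tested probes the corresponding shares were 26.7% and 34.4%. These shares also depend on how many probes rose, which was 42.9% and 29.9% of the 77 beside 11.7% and 9.1% of all tested probes. They do not show closer agreement of the genotypes in this family, and the overlap was not tested. The 18 include Rps3a1, Rpl7a, Rps9, Rps26, Rps25, Rps10, Rpl19, Rpl27, Rpl38, Rps14 and Rps15. Another 15 probes rose in wild type mice alone by the threshold and 5 in the knockout alone, 0 were called in opposite directions, and 34 were called in neither genotype.

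**Figure D3:**
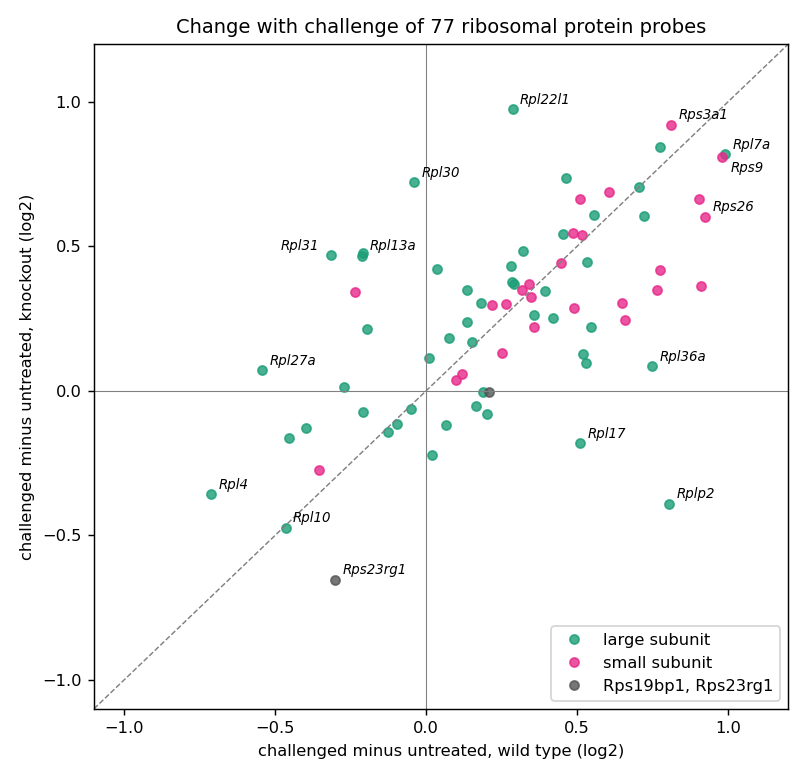
Change with challenge on the log2 scale of the 77 tested ribosomal protein probes, in wild type mice on the x axis and in knockout mice on the y axis, coloured by subunit, with the line of equal change dashed. Most points lie in the upper right, with Rpl10 in the lower left and Rplp2 and Rpl36a far below the line.

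Counts of calls moved with single arrays. Without challenged wild type replicate 4, 37 probes rose and 4 fell of 76 in wild type (background 12.9% and 17.1%) and 35 rose and 4 fell in the knockout (14.7% and 16.2%). These fits kept 36 of the 37 wild type calls and 25 of the 25 knockout calls. That array is not in the knockout comparison, so the knockout changes kept their values and only the spread shared by all groups and the adjustment of p moved. In the knockout Rpl30 changed by 0.72 ± 0.45 with that array in the fit and by 0.72 ± 0.13 without it. Without that array Rpl30 rose in wild type mice by 0.65 ± 0.14 (adjusted p = 0.00303), where with it the change was -0.04 ± 0.45 and did not pass. Rpl13a rose by 0.43 ± 0.12 without it (adjusted p = 0.0139) and changed by -0.21 ± 0.41 with it. Rpl22l1 rose by 0.53 ± 0.17 without it (adjusted p = 0.0269) and changed by 0.29 ± 0.22 with it. The wild type count of 37 calls became 24 without untreated wild type replicate 2, and the knockout count of 25 became 14 without challenged knockout replicate 4. The shares of all tested probes called in those fits are not given.

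The level of the whole family was also read per array, as the median over the 77 probes of the log2 deviation from each probe's mean. It lay between -0.30 and -0.10 in untreated wild type mice and at 0.08, 0.17, 0.27 and -0.01 in challenged wild type replicates 1 to 4. In untreated knockout mice it lay between -0.16 and 0.02, and in challenged knockout mice at 0.11, 0.03, 0.32 and 0.22. Every challenged array was above every untreated array of its own genotype, by a narrow margin for challenged knockout replicate 2 (0.03 beside 0.02).

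**Figure D4:**
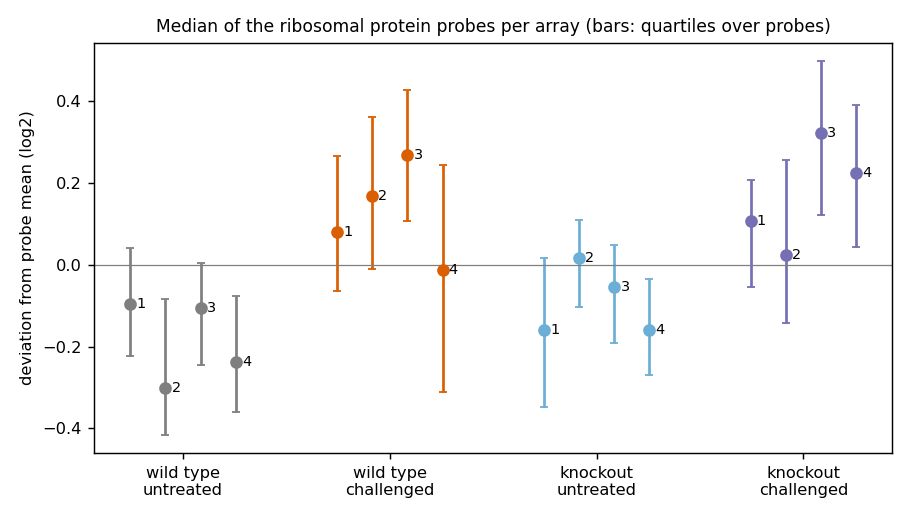
Median deviation on the log2 scale of the 77 tested ribosomal protein probes from their own means (y axis) in each array of the 4 groups (x axis), with bars from the lower to the upper quartile over probes. Untreated wild type arrays lie at -0.30 to -0.10 and challenged ones at -0.01 to 0.27, and untreated knockout arrays lie at -0.16 to 0.02 and challenged ones at 0.03 to 0.32.

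Markers of other cells moved along with challenge. The T cell genes (13 tested of 19 listed) averaged 6.88 to 7.05 in untreated and 7.11 to 8.37 in challenged wild type mice, and 6.80 to 7.10 and 7.35 to 8.69 in the knockout. Of the 8 challenged arrays, the 3 highest in this list, knockout replicate 3 (8.69), wild type replicate 3 (8.37) and knockout replicate 4 (8.14), were also the 3 highest in the ribosomal protein median. B cell and plasma cell genes (12 of 20) went from 7.11 to 7.33 to 7.16 to 8.57 in wild type and from 7.09 to 7.36 to 7.61 to 8.59 in knockout mice. The same 3 arrays were the highest in the B cell and plasma cell list. Cell cycle genes (16 of 23) went from 6.91 to 7.08 to 7.29 to 7.75 and from 7.12 to 7.14 to 7.64 to 7.83. Their order was another one, with knockout replicates 4, 1 and 3 highest (7.83, 7.78 and 7.77) and wild type replicate 3 at 7.60. Wild type replicate 4, with the lowest ribosomal protein median of the 8 (-0.01), stood at 7.75 in the cell cycle list. The part of these cells in the ribosomal protein levels was not tested.

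Skeletal muscle genes (21 of 25) averaged 8.42 to 9.09 in untreated and 8.88 to 11.18 in challenged wild type mice, and 8.77 to 9.44 and 10.53 to 11.37 in the knockout. Challenged wild type replicate 3 had the highest ribosomal protein median of its group at a skeletal muscle mean of 8.88, within the range of the untreated wild type mice. Challenged knockout replicate 2 had both the lowest skeletal muscle mean (10.53) and the lowest ribosomal protein median (0.03) of its group. With the skeletal muscle mean as a covariate in the fit the median change over the 77 probes was 0.39 in wild type and 0.36 in knockout mice, and the counts of calls were 8 and 1. Of all tested probes 4.62% and 0.488% were called in that fit, where 29.4% and 16.6% were called without the covariate.

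Rpl3l, which replaces Rpl3 in the ribosomes of striated muscle, belongs beside the muscle genes. It stood at 7.84, 8.47, 8.36 and 8.68 in untreated and at 10.72, 11.24, 8.73 and 10.58 in challenged wild type mice, where replicate 3 was again the lowest. The rise was 1.98 ± 0.40, or 3.95-fold (adjusted p = 0.00252). In the knockout it stood at 8.44, 8.44, 8.64 and 9.00 and at 11.39, 10.39, 11.31 and 11.30, a rise of 2.46 ± 0.40 or 5.52-fold (adjusted p = 0.000651). Neither rise passed with the skeletal muscle mean as a covariate, where they were 0.52 in wild type and 0.24 in knockout mice (adjusted p = 0.0868 and 0.653). Few probes passed in that fit, 4.62% and 0.488% of all tested. In the knockout that mean did not overlap between untreated and challenged mice (8.77 to 9.44 and 10.53 to 11.37). The fit can therefore hardly separate challenge from the skeletal muscle mean there. Cardiac muscle genes (19 of 21) averaged 7.96 to 8.62 and 8.60 to 9.61 in wild type and 8.39 to 8.75 and 8.83 to 10.06 in knockout mice.

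**Figure D5:**
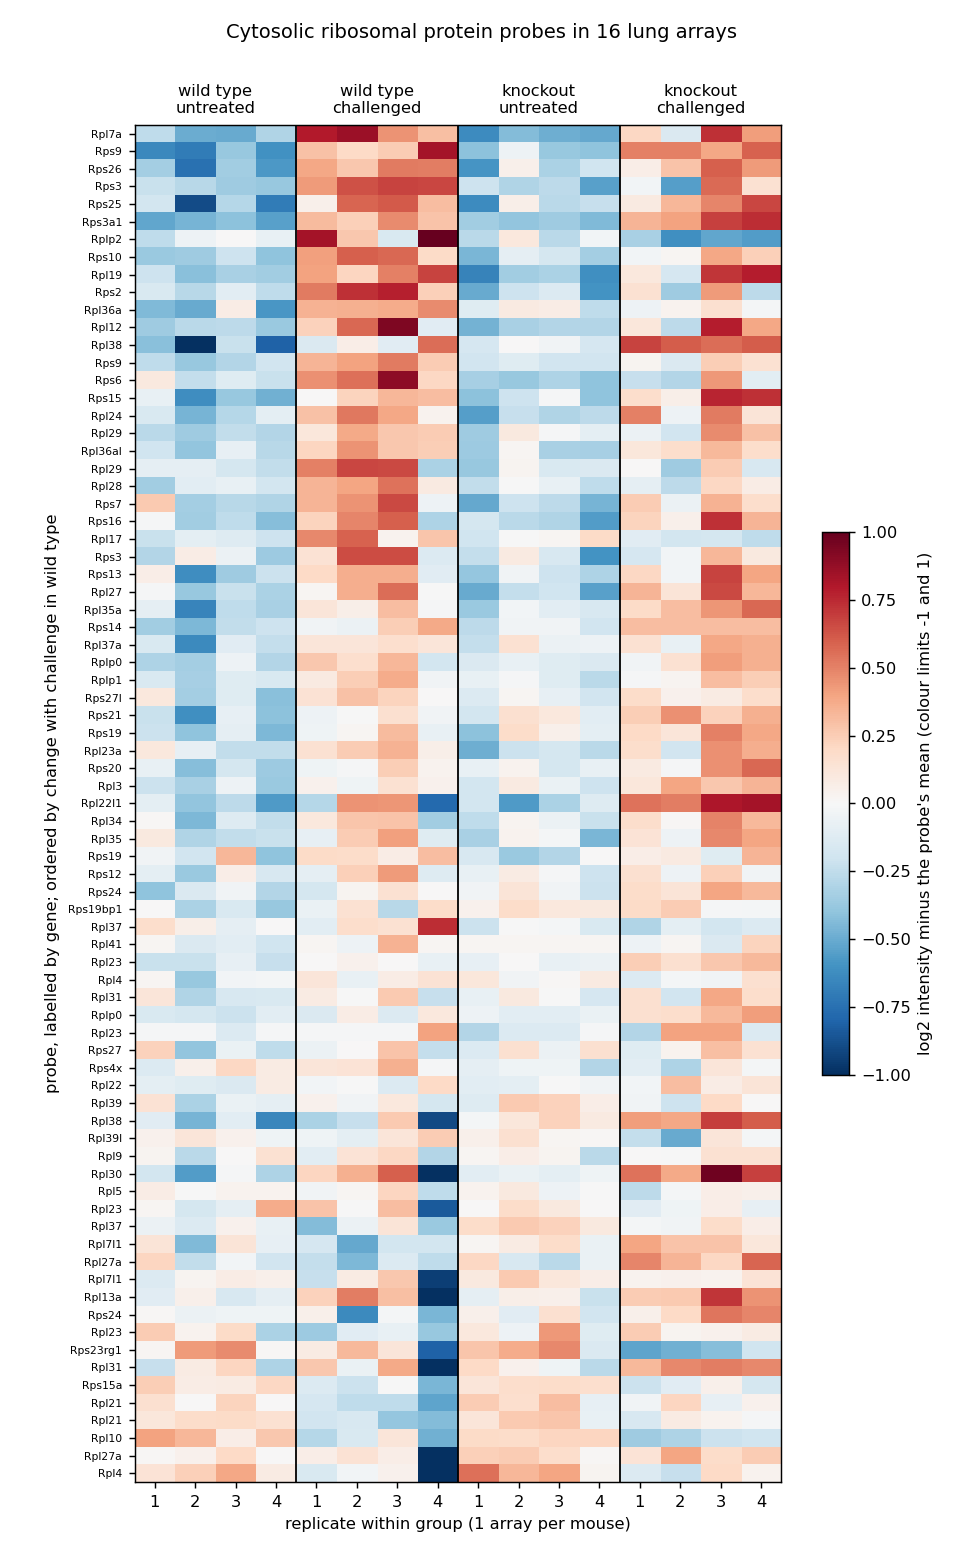
Log2 intensity minus the probe's mean over the 16 arrays for the ribosomal protein probes, with probes as rows ordered by their change with challenge in wild type mice and arrays as columns by group and replicate. Most upper rows are above their mean in challenged mice of both genotypes, and single probes are far below it in challenged wild type replicate 4.

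Between the genotypes in untreated mice 0 of 77 probes passed in limma, where 0.0168% of all tested probes did (0.00561% higher and 0.0112% lower). An unadjusted p under 0.05 was found for 5 of the 77 and for 327 of all 17810 tested probes. Knockout and wild type mice did not overlap in 5 probes, 4 higher and 1 lower in the knockout, where 4.26% of all tested probes did so, 2.17% higher and 2.09% lower. The median difference was 0.07 beside -0.00 over all tested probes. Rpl38, which is known for its part in the translation of Hox mRNAs in mouse embryos, had the smallest p. Its brighter probe stood at 13.08, 12.50, 13.28 and 12.69 in wild type and at 13.33, 13.51, 13.47 and 13.33 in knockout mice, a difference of 0.52 ± 0.17 (adjusted p = 1), and its second probe differed by 0.44 ± 0.19.

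In challenged mice 10 probes were higher and 9 lower in the knockout than in wild type, beside 21.1% and 23.1% of all tested probes (44.2% in all). The shares of the 77, 13% and 11.7%, were thus below the background in both directions. The median difference was 0.09 beside 0.00. Of the 10 higher probes 8 had a mean level under 8, a range in which 23.8% of all tested probes were higher and 27% lower. Of the 23 probes with a level of 10 to 12, 0 were higher and 5 lower, where 9% of all tested probes in that range were higher and 13.3% lower. Without challenged wild type replicate 4 the counts were 8 higher and 10 lower (background 19.7% and 21.6%), with 15 of the 19 calls kept.

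Rpl22l1 was higher in the challenged knockout mice, where it stood at 7.66 to 7.95, than in the challenged wild type mice, where it stood at 6.83, 7.56, 7.56 and 6.34. The difference was 0.72 ± 0.22 (adjusted p = 0.0181), and 0.47 ± 0.17 (adjusted p = 0.0366) without wild type replicate 4. For Rpl38 the challenged mice stood at 13.35, 13.57, 13.39 and 14.06 in wild type and at 14.18, 14.11, 14.06 and 14.11 in the knockout, a difference of 0.52 ± 0.17 (adjusted p = 0.0215), and of 0.67 ± 0.14 (adjusted p = 0.00189) without wild type replicate 4. Its second probe differed by 0.82 ± 0.19 (adjusted p = 0.00406), and by 0.62 ± 0.15 (adjusted p = 0.00449) without that array. The interaction passed for neither Rpl38 probe, at -0.00 ± 0.24 and 0.38 ± 0.27 (adjusted p = 0.996 and 0.328). The call of the brighter probe was lost without replicate 1 of either challenged group (adjusted p up to 0.0612). Rpl21 was higher by 0.28 ± 0.10 (adjusted p = 0.0388), a call lost without replicate 3 or 4 of the challenged wild type or replicate 2, 3 or 4 of the challenged knockout (adjusted p up to 0.0939).

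Rplp2 showed the largest difference, at 6.34, 6.06, 6.15 and 6.11 in challenged knockout and at 7.50, 6.94, 6.52 and 8.57 in challenged wild type mice. It was lower by -1.22 ± 0.29 (adjusted p = 0.00506), and by -0.82 ± 0.17 (adjusted p = 0.00158) without wild type replicate 4. All 4 knockout levels lie near or below the brightness limit. Rps6 was lower by -0.58 ± 0.16 (adjusted p = 0.0102) and Rps2, which lines the mRNA entry channel, by -0.58 ± 0.17 (adjusted p = 0.0143). Rps6 stood at 10.17, 10.11, 10.84 and 10.30 in the challenged knockout, where replicate 3 lay within the wild type range of 10.61 to 11.30. Rpl17, a protein of the exit tunnel, was lower by -0.53 ± 0.12 (adjusted p = 0.00326). Rpl28 was lower by -0.36 ± 0.12 and Rpl36a by -0.35 ± 0.13. The Rpl28 call was lost without challenged replicate 2 of either genotype, wild type replicate 3 or knockout replicate 1 (adjusted p up to 0.0913), and the Rpl36a call without any challenged array other than knockout replicate 3 (adjusted p up to 0.0933).

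The olfactory, vomeronasal and taste receptor probes, which are dim in lung, moved between the challenged groups too. The array lists 1338 such probes, of which 640 passed the brightness filter. The median over all 1338 was 6.12 to 6.29 in challenged wild type and 5.94 to 6.02 in challenged knockout mice. In the untreated groups this median was 6.02 to 6.13. The challenged genotypes do not overlap in it, so a fit with this median as a covariate can hardly separate genotype from it. With that median as a covariate 0 of the 77 ribosomal protein probes passed between the challenged genotypes, where 1.11% of all tested probes were called, in place of 44.2% without it. The differences of Rplp2 and Rpl22l1 changed sign, to 0.26 and -0.28.

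The difference of the challenge effects between genotypes (knockout less wild type) is the interaction. It passed for 3 of 77 probes, 1 higher and 2 lower, beside 9.33% of all tested probes, 5.67% higher and 3.67% lower. Rpl17, with a dim probe, rose in wild type mice from 6.37, 6.50, 6.46 and 6.39 to 7.08, 7.18, 6.63 and 6.87, a change of 0.51 ± 0.12, and in the knockout went from 6.40, 6.59, 6.61 and 6.79 to 6.48, 6.41, 6.42 and 6.34, a change of -0.18 ± 0.12 that did not pass. The difference between these effects was -0.69 ± 0.17 (adjusted p = 0.0255). It was lost without untreated wild type replicate 1 or 3, untreated knockout replicate 2, 3 or 4, or replicate 4 of the challenged knockout (adjusted p up to 0.0594).

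Rpl36a, a protein near the exit site for spent tRNA, rose in wild type mice from 10.49, 10.43, 11.01 and 10.36 to 11.28, 11.29, 11.31 and 11.41, a change of 0.75 ± 0.13 (adjusted p = 0.00099). In the knockout it went from 10.81, 11.03, 11.01 and 10.68 to 10.89, 10.97, 11.10 and 10.92, a change of 0.09 ± 0.13 that did not pass. The difference was -0.66 ± 0.19 (adjusted p = 0.0395). It was lost when leaving out any 1 of 10 of the 16 arrays, namely untreated wild type replicate 1, 2 or 4, untreated knockout replicate 2, 3 or 4, challenged knockout replicate 1, 2 or 4 or replicate 1 of the challenged wild type (adjusted p up to 0.0872). The third probe was the dimmer one of Rpl27a, which was above the brightness limit on all 4 challenged knockout arrays and on 2 of the other 12. It entered the test through the group in which it was high, so no size of its difference is given, and it is also among the probes counted as higher with challenge in the knockout and higher in the challenged knockout. Without challenged wild type replicate 4, 1 probe was higher and 5 were lower (background 7.64% and 7.85%), Rplp2 among the latter at -0.80 ± 0.23 (adjusted p = 0.0306).

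Paralogs of ribosomal proteins were called in some pairs and not in others. Rpl36al, a copy of Rpl36a without introns, rose by 0.53 ± 0.11 in wild type (adjusted p = 0.00248) and by 0.45 ± 0.11 in knockout mice (adjusted p = 0.00909), where Rpl36a changed by 0.09. Rps27l, a paralog of Rps27 that p53 induces, rose by 0.36 ± 0.11 in wild type mice (adjusted p = 0.0289) and changed by 0.22 ± 0.11 in the knockout without passing. The wild type call was lost without untreated wild type replicate 2 or 4 or challenged wild type replicate 2 (adjusted p up to 0.083). Its partner Rps27 changed by 0.12 ± 0.15 and 0.06 ± 0.15. Rpl3 rose in the knockout by 0.37 ± 0.10 (adjusted p = 0.0227), a call lost without untreated knockout replicate 1 or 4 or challenged knockout replicate 2 or 4 (adjusted p up to 0.0744).

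Rpl22, which developing T cells need in the mouse, changed by 0.08 ± 0.10 and 0.18 ± 0.10 and did not pass in either genotype. Rpl39 and its testis-enriched paralog Rpl39l did not pass either, with changes between -0.22 and 0.07, nor did Rpl7l1, at -0.21 ± 0.18 and -0.07 ± 0.18, or Rps4x, at 0.10 ± 0.12 and 0.04 ± 0.12. Rps19bp1 changed by 0.21 ± 0.12 and -0.00 ± 0.12. Ribosomal protein genes have many processed copies in the mouse genome that are close to them in sequence. Probe sequences were not used here, so that a probe's signal may include such copies.

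Of the 61 genes, 14 had several tested probes. Their probes changed in 1 direction in 9 of these genes in wild type and in 12 in knockout mice. In 0 genes were probes called in opposite directions, and in 0 did their changes differ by more than 1 log2 unit in either comparison. Rpl23 had 4 tested probes, with changes of 0.13, 0.18, -0.10 and -0.27 in wild type mice, of which 0 passed. Its brightest probe gave the highest intensity of the array on 3 arrays, and it stood at 15.07 in each of challenged wild type replicates 1 to 3. The arrays share nearly the same sorted values, so the level of so bright a probe follows its rank on the array.

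Genes with and without a pyrimidine run at the start are set side by side here, with no test. Of the 26 genes with a run of at least 7, 11 rose and 1 fell with challenge in wild type mice (median change 0.29), and of the 26 without one, 14 rose and 1 fell (0.44). In the knockout 7 rose and 1 fell (0.30), and 10 rose and 1 fell (0.32). Rpl7a, with the longest run shown, and Rps3a1, with the shortest, both rose in both genotypes. Rps15a, with a run of 10, fell in wild type mice, and Rpl10, with a run of 3, fell in both genotypes.

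Other genes of translation moved in both directions. Of 33 probes for translation factors and other genes with TOP mRNAs, 7 rose and 9 fell in wild type (median change -0.14) and 7 rose and 5 fell in knockout mice (median 0.04). These are 21.2% and 27.3% in wild type, where 11.7% of all tested probes rose and 17.7% fell, and 21.2% and 15.2% in the knockout, where 9.1% rose and 7.48% fell. Eef1b2, the exchange factor of the elongation factor that delivers tRNA, rose in all 3 of its probes, by 0.79 to 1.08 in wild type and by 0.69 to 0.82 in knockout mice. Fau, which encodes the small subunit protein eS30 fused to a ubiquitin-like protein and falls outside the rule by its name, rose by 0.83 ± 0.12 and 0.90 ± 0.12. Eif4a2, an RNA helicase of initiation, fell in wild type mice by -0.95 ± 0.27 and -0.79 ± 0.10 in its 2 called probes, the first by -0.62 ± 0.18 without replicate 4 of the challenged group. Tpt1, a growth-related TOP gene, rose in the knockout by 0.92 ± 0.16.

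Ribosome biogenesis genes moved both ways. Of 56 probes 9 rose and 7 fell in wild type (median -0.02) and 5 rose and 2 fell in knockout mice (0.15). The shares that rose and fell were 16.1% and 12.5% in wild type and 8.93% and 3.57% in the knockout, of which the shares that fell lie below those of all tested probes. Fbl, the methyltransferase of box C/D particles, rose in wild type mice by 0.73 ± 0.18 and Rrp12 by 0.71 ± 0.14, and Nol11, which acts in pre-rRNA processing, fell by -0.81 ± 0.22. In the knockout Polr1a, the largest subunit of RNA polymerase I, rose by 0.59 ± 0.12, and Sbds and Pes1, both needed for the large subunit to mature, fell by -0.83 ± 0.12 and -0.78 ± 0.12. Between the challenged genotypes 16 of the 56 (28.6%) were higher and 7 (12.5%) lower in the knockout, beside 21.1% and 23.1% of all tested probes.

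Of 17 probes for mTOR and Myc regulators, 1 rose and 1 fell in wild type (5.88% each way, below the shares of all tested probes) and 1 rose and 3 fell in knockout mice (5.88% and 17.6%, beside 9.1% and 7.48%). Tsc1, which restrains mTOR, rose in wild type mice by 0.96 ± 0.26, and Eif4ebp2, a repressor of cap-dependent initiation, fell by -0.71 ± 0.18 and, in the knockout, by -0.84 ± 0.18. Between the challenged genotypes 3 of the 17 were higher and 3 lower in the knockout (17.6% each way), below the 21.1% and 23.1% of all tested probes. Tsc1 was lower in the knockout by -1.27 ± 0.26, Mtor by -0.89 ± 0.27, and Eif4ebp1 was higher by 1.19 ± 0.35. Without challenged wild type replicate 4 these differences were -0.92 ± 0.15, -0.53 ± 0.16 and 0.69 ± 0.18, and Tsc1 rose in wild type mice by 0.62 ± 0.15. All 4 still passed, while between the challenged genotypes 1 of the 17 was higher and 2 lower in that fit (background 19.7% and 21.6%). With the receptor median as a covariate 0 of the 17 were called between the challenged genotypes, beside 1.11% of all tested probes.

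Mitochondrial ribosomal proteins, which serve the separate ribosome of the mitochondrion, were tested with 96 probes. Of these 23 rose and 4 fell in wild type (median 0.10) and 26 rose and 0 fell in knockout mice (0.32). The shares were 24% and 4.17% in wild type (all tested probes 11.7% and 17.7%) and 27.1% and 0% in the knockout (9.1% and 7.48%). They were led by Mrps14 and Mrpl12 in wild type mice, at 1.32 ± 0.36 and 1.28 ± 0.14. Mrps14 stood at 8.36, 7.81, 7.43 and 9.87 in challenged wild type mice, replicate 4 the highest, and without that array it rose by 0.82 ± 0.19 (adjusted p = 0.00431) and Mrpl12 by 1.26 ± 0.14. The rises were led by Mrpl42 in the knockout, at 1.27 ± 0.29. Between the challenged genotypes 26 (27.1%) were higher and 8 (8.33%) lower in the knockout, beside 21.1% and 23.1% of all tested probes, with a median difference of 0.27, where the cytosolic ribosomal protein probes had 10 and 9 and a median of 0.09. On challenged wild type replicate 4 the median deviation of the mitochondrial ribosomal protein probes was -0.34, the lowest of the 16 arrays. Without that array 29 were higher and 10 lower between the challenged genotypes (background 19.7% and 21.6%), with a median difference of 0.14. With challenge 38 rose and 3 fell in wild type in that fit (39.6% and 3.12%, background 12.9% and 17.1%). In knockout mice 44 rose and 0 fell (45.8% and 0%, background 14.7% and 16.2%). The difference between the cytosolic and the mitochondrial proteins was not tested.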

How the data were processed

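RNA from 16 lungs was measured on Illumina bead arrays, 1 array and 1 mouse per sample. For each probe the deposited file holds a linear intensity, made by the authors with GenomeStudio 2011.1 per the submitters' processing notes. The normalization and background treatment are not given in the sources used here. The sorted values of the arrays differ by at most 4.9 at 1 rank, so they were not normalized again. Deposited intensities were raised to a floor of 16 (1123 of 411152 values) and taken to log2. The test took the 17810 probes that exceeded their array's 40th percentile on 4 or more arrays.

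All 16 arrays were fitted in 1 model with a mean per group in limma 3.58.1 (lmFit and eBayes) with R 4.3.3. The contrasts were challenge in each genotype, genotype in each treatment and the interaction. Calls needed an adjusted p under 0.05 (Benjamini-Hochberg) over all tested probes. The fit was tested on simulated data first. The members, lists and alternatives were chosen with earlier results of these data known. The table of changes by level and the choice of promoters shown were added after the values were seen. Genes were named by a rule. It takes the P stalk genes, the 6 called genes with the largest rise and fall per contrast, the paralogs and their partners, Rps6 and Rps19bp1, and up to 3 called genes per related list, and where no member was called the one with the smallest p. Rps14, Rps15, Rpl13a, Rpl23, Rpl27a, Rpl30, Rpl31 and Rpl4 are outside that rule and were chosen after their values were seen.

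Probe annotation gave 1 symbol for 23978 probes and none for 1719. Replicate numbers were taken only to name the mice. Of 24 pairs with the same number, 6 had deviations that correlated above 0.1, with r from -0.11 to 0.32. Pairs with different numbers were not computed, so these values cannot settle whether the numbers pair the mice.

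The alternatives were a floor of 32, quantile, median and cyclic loess normalization, array weights, no filter, the 60th percentile as the filter, trend and robust in eBayes, 1 probe per gene, only the arrays compared, non-overlap of groups, the replicate number as a block, the skeletal muscle mean or receptor median of each array as a covariate, and leaving out each array.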

Additional observations from a re-analysis of the deposited data

Results flagged for a closer look

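A mouse far from the other 3 of its group was looked for in 132 groups of values of the 33 named genes and in the 4 groups of the family median. Of these 136 groups 7 held one. The groups of values come from the same 16 arrays, and how many would hold one by chance was not tested. Rplp0 stood at log2 7.43 in untreated wild type replicate 3 (others 7.15 to 7.19), and Rplp1 at 13.21 in untreated wild type replicate 2 (others 13.39 to 13.43). Rpl36al stood at 10.85 in untreated knockout replicate 2 (others 10.47 to 10.51), the same mouse in which Rps9 stood at 12.75 (others 12.39 to 12.42). Rps9 also stood at 13.63 in challenged wild type replicate 4 (others 13.00 to 13.09), the array that stands apart. Rpl7l1 stood at 8.21 in challenged knockout replicate 4 (others 8.11). Rpl3l stood at 10.39 in challenged knockout replicate 2 (others 11.30 to 11.39), whose skeletal muscle mean of 10.53 was the lowest of its group.

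Taking the brightest probe of each gene, the challenge effect differed between genotypes for 2 genes by the interaction test. It was lower in the knockout by -0.69 for Rpl17 and by -0.66 for Rpl36a on the log2 scale, and both calls depended on single arrays. The only call in the other direction, of the dimmer Rpl27a probe, is left without a size, since that probe was above the brightness limit mainly in the challenged knockout mice.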

How the results depend on the processing

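Counts here are the total calls of each fit, not the calls shared with the first. The share of all tested probes that were called also moved between fits, and it is given here for the covariate fits only. With challenge in wild type mice the total of 37 became 19 with only the arrays compared, 8 with the skeletal muscle covariate and 19 with the receptor covariate, and leaving out 1 array gave 24 to 41. The 37 calls were 48.1% of the 77 probes, beside 29.4% of all tested probes. With the skeletal muscle covariate the shares were 10.4% beside 4.62%, and with the receptor covariate 24.7% beside 7.28%. In the knockout the total of 25 became 42 with array weights and 1 with the skeletal muscle covariate, and leaving out 1 array gave 14 to 39. The shares were 32.5% beside 16.6% in the first fit and 1.3% beside 0.488% with the skeletal muscle covariate. Between untreated genotypes the count of 0 became 5 by non-overlap of groups, and leaving out 1 array gave 0. Between challenged genotypes 19 became 9 with 1 probe per gene, 5 with only the arrays compared and 0 with the receptor covariate, and leaving out 1 array gave 14 to 21. The shares were 24.7% beside 44.2% in the first fit and 0% beside 1.11% with the receptor covariate. For the interaction 3 became 8 with array weights and 0 with the receptor covariate, and leaving out 1 array gave 0 to 6. With the receptor covariate the interaction passed for 0.0168% of all tested probes, in place of 9.33%. The replicate block, with numbers that were otherwise taken only to name the mice, gave 37, 25, 0, 20 and 3 calls in this order. Other settings kept these counts within 1.5 times. The causes were not tested, apart from the fewer arrays or probes that some settings hold by construction. An array outside a comparison also moves its count, through the spread shared by all groups.

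Values of uncalled genes and of Rplp2 and Rpl22l1 changed sign in some settings. Under the receptor covariate Rplp2 turned to 0.13 in the knockout with challenge and to 0.26 between challenged genotypes, Rpl22l1 to -0.28 between challenged genotypes, Rpl22 to -0.026, Rpl39l to -0.18 and Rpl7l1 to 0.19 in wild type mice, and Rps27 to -0.053 in the knockout. Cyclic loess turned Rpl39l to -0.047 and Rpl7l1 to 0.028 in wild type mice, and Rpl39 to 0.0048 and Rps19bp1 to 0.013 in the knockout. Array weights turned Rpl39l in wild type mice to -0.071 and Rps19bp1 in the knockout to 0.0093, and the skeletal muscle covariate turned Rpl7l1 in the knockout to 0.055. Leaving out 1 array gave -0.048 to 0.071 for Rpl39l, -0.37 to 0.037 for Rpl7l1 and -0.0099 to 0.14 for Rpl39 in wild type mice, and in the knockout -0.011 to 0.13 for Rps27, -0.029 to 0.11 for Rps4x and -0.055 to 0.037 for Rps19bp1.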
